A study of Mus musculus with 34 samples.

Results

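Ribosome biogenesis factors are the nucleolar proteins that transcribe, modify, cut and fold ribosomal RNA and assemble it with ribosomal proteins. A set of 52 such genes was followed through T cell activation in all 13 groups of the study. The genes were listed by the step they serve, with earlier results of these data known: 5 serve RNA polymerase I transcription and its nucleolar partners, 4 encode core proteins of the small nucleolar ribonucleoprotein particles (snoRNPs), 20 build the small ribosomal subunit, 16 build the large subunit and 7 are nucleolar proteins with several steps. All 52 were found among the 48526 genes of the table, and all 52 were among the 18292 genes tested.

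RNA polymerase I makes a single long precursor that holds the RNAs of both ribosomal subunits. snoRNPs methylate and pseudouridylate it, the small subunit processome and large subunit factors separate and fold its parts, and nucleases trim the ends. Resting T cells are small and make few ribosomes; on activation they grow, enlarge their nucleoli and raise ribosome production ahead of division, in part through MYC, whose protein binds E-box sequences in many genes of the pathway.

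Splenic pan T cells of C57BL/6 mice aged 6 to 12 weeks were taken by negative selection. WT cells were sequenced unstimulated (day 0), and cells of 6 genotypes after 24 h (day 1) or 72 h (day 3) with antibodies to CD3 and CD28 and rIL-2, so that every stimulated group, CD28 KO included, received the CD28 antibody and rIL-2. WT had 2 libraries at each of the 3 times, CD28 KO 2 at each of days 1 and 3, and each of CD28 AYAA, CD28 Y170F, DKI and Ars2 KO 3 at each of days 1 and 3, or 34 libraries in all. The design text calls the libraries biological replicates and compares each group with unstimulated WT; the labels tie none of them to an animal, so p-values measure the spread between libraries. ARS2, the product of Srrt, is a partner of the nuclear cap-binding complex, and CD28 is the costimulatory receptor of T cells. The labels give neither the changes carried by DKI, which the design text calls CD28 DKI, nor the promoter or Cre that removes Ars2. By their usual names, AYAA replaces prolines of a motif in the CD28 tail with alanine and Y170F replaces a tail tyrosine with phenylalanine.

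Totals, in units of 1000000 expected counts, were 8.3 to 10.6 in the 6 DKI libraries and in the WT libraries numbered 4 at days 1 and 3, 15.7 to 32.0 in the other stimulated libraries, and 44.0 and 47.8 at day 0. Both day 0 libraries stood apart: mitochondrial ribosomal RNA took 17.2% and 17.5% of their counts against at most 0.18% in any stimulated library, and the summed level of 15 B cell markers was 1588 and 1420 CPM (counts per 1000000 counts) against 18.9 to 242 after stimulation. Summed T cell markers were 2808 to 4500 CPM throughout. Srrt was 2.09 lower on the log2 scale in Ars2 KO than in WT at day 1 (SE 0.23, edgeR adjusted p = 1.9e-05) and 0.71 lower at day 3 (adjusted p = 0.042). At day 1 its values were 33.5 to 64.8 CPM in Ars2 KO and 131 and 244 in WT. The groups overlapped at day 3, with 105 to 146 CPM in Ars2 KO and 145 and 245 in WT. Cd28 mRNA was not lower in the libraries labelled CD28 KO at day 1 (476 and 482 CPM against 387 and 411 in WT). At day 3 it was lower there (212 and 214 against 474 and 587), but also in Ars2 KO, CD28 AYAA and DKI. A count over the whole gene does not show which exons are present, so that label was not checked. CD28 KO below means the libraries labelled so. In bulk RNA, fewer cells of a type and less RNA per cell cannot be told apart.

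Some members hold the same short sequences in their promoters, which the choice of genes did not use. RefSeq starts of GRCm38.p6 were matched for 46 of the 52 members, and the window from 250 bases before to 50 after each start was searched on both strands. The E-box CACGTG, the sequence MYC binds with its partner MAX, was present for 11 of 46 members (23.9%), against 11.2% of 11269 tested genes. The ETS core CCGGAAG was present for 15 (32.6%) against 19.0%, and the YY1 core AAGATGG for 3 (6.5%) against 8.2%. Of 12 E-boxes in member windows 9 lay after the start, 3 to 41 bases into the transcript. The same split for all tested genes is not given here. These are descriptions of letters, with no binding data behind them. The windows of 3 of the 11 members with an E-box are shown to 30 bases after the start. Their genes open the pathway (Rrn3, the initiation factor that brings RNA polymerase I to ribosomal DNA) or act early in the large subunit (Nop2, a ribosomal RNA methyltransferase, and Pes1, of the PES1, BOP1 and WDR12 complex). Rrn3 and Nop2 hold the only E-boxes found before a start. The windows of Polr1a, Polr1b, Nolc1 and Wdr12, of the same steps, hold none. Capitals mark each E-box and each ETS core in either orientation. Rrn3, at chr16:13780449-13780728 on the plus strand, has E-boxes whose first bases lie 215 and 48 bases before the start. Nop2, at chr6:125131633-125131912 on the plus strand, has one 60 bases before it. Pes1, at chr11:3963725-3964004 on the plus strand, has one at base 3 of the transcript.
Rrn3: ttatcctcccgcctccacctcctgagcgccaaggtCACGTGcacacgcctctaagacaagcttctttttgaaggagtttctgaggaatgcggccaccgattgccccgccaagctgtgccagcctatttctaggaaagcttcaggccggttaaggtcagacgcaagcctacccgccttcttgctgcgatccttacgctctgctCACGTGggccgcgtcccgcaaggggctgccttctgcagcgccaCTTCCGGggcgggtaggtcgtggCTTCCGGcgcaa
Nop2: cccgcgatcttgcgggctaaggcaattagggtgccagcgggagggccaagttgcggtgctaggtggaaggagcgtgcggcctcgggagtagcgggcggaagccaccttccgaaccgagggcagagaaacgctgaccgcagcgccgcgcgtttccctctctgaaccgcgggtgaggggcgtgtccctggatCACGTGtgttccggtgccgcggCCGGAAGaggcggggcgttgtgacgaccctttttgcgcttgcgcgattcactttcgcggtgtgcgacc
Pes1: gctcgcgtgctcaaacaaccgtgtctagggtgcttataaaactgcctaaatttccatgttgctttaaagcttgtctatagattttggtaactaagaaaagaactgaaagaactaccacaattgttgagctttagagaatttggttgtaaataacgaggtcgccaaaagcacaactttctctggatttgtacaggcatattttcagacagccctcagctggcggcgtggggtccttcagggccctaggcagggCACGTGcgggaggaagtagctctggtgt

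Stimulation of WT cells for a day raised members of every step. Of the 52 members 45 were higher at day 1 than at day 0 and 0 were lower, while 24.2% of all genes tested were higher. The members' median log2 fold change was 0.94 and that of all genes tested -0.02. By step, 5 of 5 polymerase I genes, 4 of 4 snoRNP genes, 17 of 20 small subunit genes, 12 of 16 large subunit genes and 7 of 7 of the remaining nucleolar genes were higher. The 7 not called were Bop1, Ddx10, Ftsj3, Nle1, Noc2l, Pwp2 and Rrp9, all with values between 0.17 and 0.66 on the log2 scale. Nle1, a large subunit factor, had the smallest change and was at 19.6 and 20.7 CPM at day 0 and at 23.3 and 22.0 CPM at day 1. B cell markers, mitochondrial ribosomal RNA and myeloid markers (377 and 361 CPM at day 0, 35.2 and 22.6 at day 1) fell between the same libraries, and their part in this comparison was not tested.

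At day 3 the WT cells had lost most of this increase. Of 52 members 49 were lower at day 3 than at day 1 and 0 were higher, against 14.0% of all genes tested that were lower, with a median log2 fold change of -1.34 (all genes -0.03). Every one of the 20 small subunit genes and the 4 snoRNP genes was lower, as were 15 of 16 large subunit genes. The exceptions were Npm1 (-0.40), Tcof1 (-0.36) and Wdr12 (-0.31), none of which passed the test. Set against day 0, 6 members were higher at day 3 and 17 lower, against 23.5% and 27.0% of all genes tested. Those higher were Fbl, Ncl, Noc4l, Nop14, Npm1 and Tcof1, and the lowest were Nle1 (-1.43), Pwp2 (-1.32) and Rrp9 (-1.28). That last split moved with single libraries: without WT number 4 at day 3 it was 6 higher and 5 lower, and without either day 0 library 4 higher and 9 lower.

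**Figure D1:**
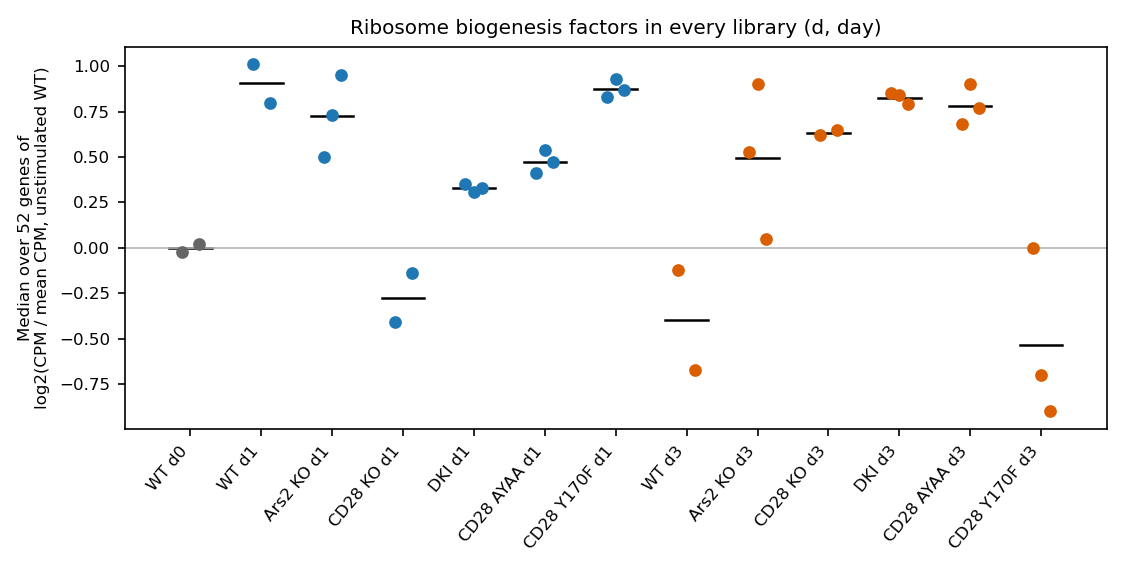
Each point is 1 library: the median over the 52 genes of log2(CPM divided by the mean CPM of the unstimulated WT libraries), with bars at group means, grey for day 0, blue for day 1 and orange for day 3. At day 1 the libraries labelled CD28 KO sit lowest, at -0.41 and -0.14, WT and CD28 Y170F lie at 0.80 to 1.01 and Ars2 KO at 0.50 to 0.95; at day 3 WT and CD28 Y170F sit at or below 0 while the other genotypes sit between 0.05 and 0.90.

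Among the polymerase I genes, Nolc1 and Tcof1 encode related nucleolar phosphoproteins. Nolc1, a chaperone of snoRNPs, was at 61.2 and 62.2 CPM at day 0, 233 and 159 at day 1 and 66.4 and 40 at day 3 in WT. Day 1 stood clear of both other times, and the change was 1.67 up (SE 0.34, adjusted p = 0.00021) and then 1.87 down (-1.87, SE 0.34, adjusted p = 0.00016) on the log2 scale. Tcof1, or treacle, which holds polymerase I factors in the nucleolus, was at 114 and 111 CPM at day 0, 287 and 241 at day 1 and 228 and 184 at day 3. It rose by 1.23 (SE 0.18, adjusted p = 2.5e-06) and at day 3 was still 0.88 above day 0 (adjusted p = 0.00016). The polymerase subunits went up and came down: Polr1b, the second largest, was at 48.4 and 54.0, then 119 and 108, then 28.4 and 16.8 CPM, and its fall of 2.31 from day 1 to day 3 was the steepest of the 52 members (SE 0.37, adjusted p = 3.6e-05). Rrn3 moved less, from 64.6 and 66.1 to 101 and 87.7 and back to 64.9 and 52 CPM.

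The snoRNP core proteins rose together. Fbl, the methyltransferase of box C/D particles, was at 49.8 and 48.3 CPM at day 0, 185 and 155 at day 1 and 111 and 70.5 at day 3, so that all stimulated WT libraries lay above both unstimulated ones. Its log2 fold change was 1.79 at day 1 (SE 0.28, adjusted p = 1e-05) and 0.89 at day 3 (adjusted p = 0.0095). Its particle partners were called higher at day 1 and not at day 3. Nop56 was at 173 and 188, then 444 and 351, then 191 and 116 CPM, and Nop58 at 92.8 and 97.4, then 315 and 246, then 131 and 66.9 CPM. Dkc1, the pseudouridine synthase of box H/ACA particles, followed at 73.5 and 82.0, then 224 and 169, then 104 and 53.1 CPM. For these 3 the day 3 values lay on both sides of the day 0 values, and their day 3 tests against day 0 did not pass (log2 fold changes -0.23, 0.07 and 0.02).

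Some members also host snoRNAs, the guide RNAs of these particles, within their own genes. Of the 52 members 7 held annotated snoRNA genes (13.5%), with 21 snoRNA genes between them, against 234 of 13359 protein-coding genes tested (1.75%). Nop56 held 5, Nop58 4, Wdr43, Gnl3 and Ncl 3 each, Tsr1 2 and Dkc1 1.

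In the small subunit, the pair Nop14 and Noc4l, which bind each other in the early processome, had the largest fold changes from day 0 to day 1. Noc4l was at 19.8 and 21.2 CPM at day 0, 80.7 and 67.8 at day 1 and 44.2 and 28.7 at day 3. Nop14 was at 29.0 and 30, then 102 and 74.5, then 50.2 and 36.9 CPM. For both genes every stimulated WT library exceeded every unstimulated one, with day 1 log2 fold changes of 1.86 (SE 0.27, adjusted p = 2.6e-06) and 1.58 (SE 0.20, adjusted p = 3.7e-07). Wdr43, which ties polymerase I transcription to early processing, went from 118 and 120 to 222 and 176 and then to 97.0 and 67.5 CPM. Tsr1, a late factor on the cytoplasmic precursor, went from 73.5 and 75.1 to 150 and 133 and then to 57.7 and 37.6 CPM. Both ended below their starting level: the day 3 log2 fold changes against day 0 were -0.53 (adjusted p = 0.029) and -0.63 (adjusted p = 0.022).

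In the large subunit, Rrp1b, a nucleolar partner of early precursors, was at 43.6 and 40.7 CPM at day 0, 137 and 113 at day 1 and 45.5 and 25.0 at day 3. Nop16 was at 18.8 and 20.4, then 54.2 and 41.2, then 17.3 and 10.1 CPM. Ddx18, an RNA helicase, was at 68.8 and 74.4, then 131 and 116, then 60.1 and 40.4 CPM. In each of the 3 the day 1 libraries were the highest of WT, and the day 3 libraries lay below both day 0 libraries except WT number 1 for Rrp1b. Noc2l, of the NOC complexes that escort the precursor through the nucleus, was at 104 and 105, then 182 and 148, then 97.3 and 54.9 CPM, and its day 1 difference did not pass the test (0.66, SE 0.30, adjusted p = 0.067) although the groups did not overlap. Gnl3, or nucleostemin, a nucleolar GTPase of dividing cells, was at 53.5 and 55.9, then 121 and 92.0, then 37.6 and 20.6 CPM.

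Nucleolin (Ncl) and nucleophosmin (Npm1), the abundant histone- and RNA-binding proteins of the nucleolus, were the 2 highest members per kilobase of exon over all libraries. Ncl went from 173 and 185 CPM at day 0 to 2450 and 1750 at day 1, the largest change of the set (log2 fold change 3.55, SE 0.24, adjusted p = 1.1e-11), and stayed at 1340 and 904 at day 3 (2.65 above day 0, SE 0.23, adjusted p = 7.2e-10). Npm1 went from 601 and 636 to 1820 and 1340 and then to 1360 and 1020 CPM. It has near-identical processed copies in the genome, between which estimated counts can be split, so its level is less certain. Mybbp1a, a nucleolar repressor and processing factor, was at 109 and 110, then 547 and 415, then 191 and 94.3 CPM. Ncl and Npm1 thus stayed well above the resting level at day 3, and Mybbp1a did not (0.39, SE 0.34, adjusted p = 0.36). Per kilobase, the members spanned 431 CPM for Npm1 to 5.41 CPM for Nle1 on the mean of all libraries.

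The other genotypes were read against the same 2 day 0 libraries, so these counts share their controls. At day 1, Ars2 KO had 41 members higher (25.7% of all genes tested), CD28 Y170F 46 (25.8%), CD28 AYAA 24 (23.8%) and DKI 14 (21.7%), none of these 4 with a member called lower. In a fit to only the groups compared DKI had 35 higher and 5 lower and CD28 AYAA 40 higher and 3 lower. The shares of all genes called in that fit are not given here. The libraries labelled CD28 KO had 5 members higher and 11 lower against 21.1% and 31.1% of all genes tested. Those higher were Ncl, Nop14, Tcof1, Usp36 and Wdr12. In a fit to protein-coding genes alone, with fewer genes tested and library sizes from them, the split there was 7 higher and 6 lower. At day 3, 46 members were higher than at day 0 in DKI (26.3%), 45 in CD28 AYAA (27.8%), 35 in CD28 KO (24.1%) and 28 in Ars2 KO (27.3%), and none was called lower in these groups. CD28 Y170F at day 3 had 6 higher and 26 lower, against 25.3% and 28.5%. The part of the difference in B cell markers and mitochondrial ribosomal RNA between day 0 and stimulated libraries in these counts was not tested. CD28 KO at day 1 rested on few libraries: against 16 calls in all libraries, there were 5 higher and 0 lower without its number 1, 2 and 4 without its number 2, 3 and 1 without day 0 number 1, and 4 and 2 without day 0 number 2, so that the balance turned in 3 of the 4. Without day 0 number 1 the day 1 counts were 27 in Ars2 KO, 13 in CD28 AYAA and 7 in DKI, and the day 3 counts 18 in Ars2 KO and 20 in CD28 KO. Without day 0 number 2 they were 12 in CD28 AYAA and 9 in DKI at day 1 and 21 in CD28 KO at day 3, and without 1 CD28 KO library of day 3 the last was 20.

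**Figure D2:**
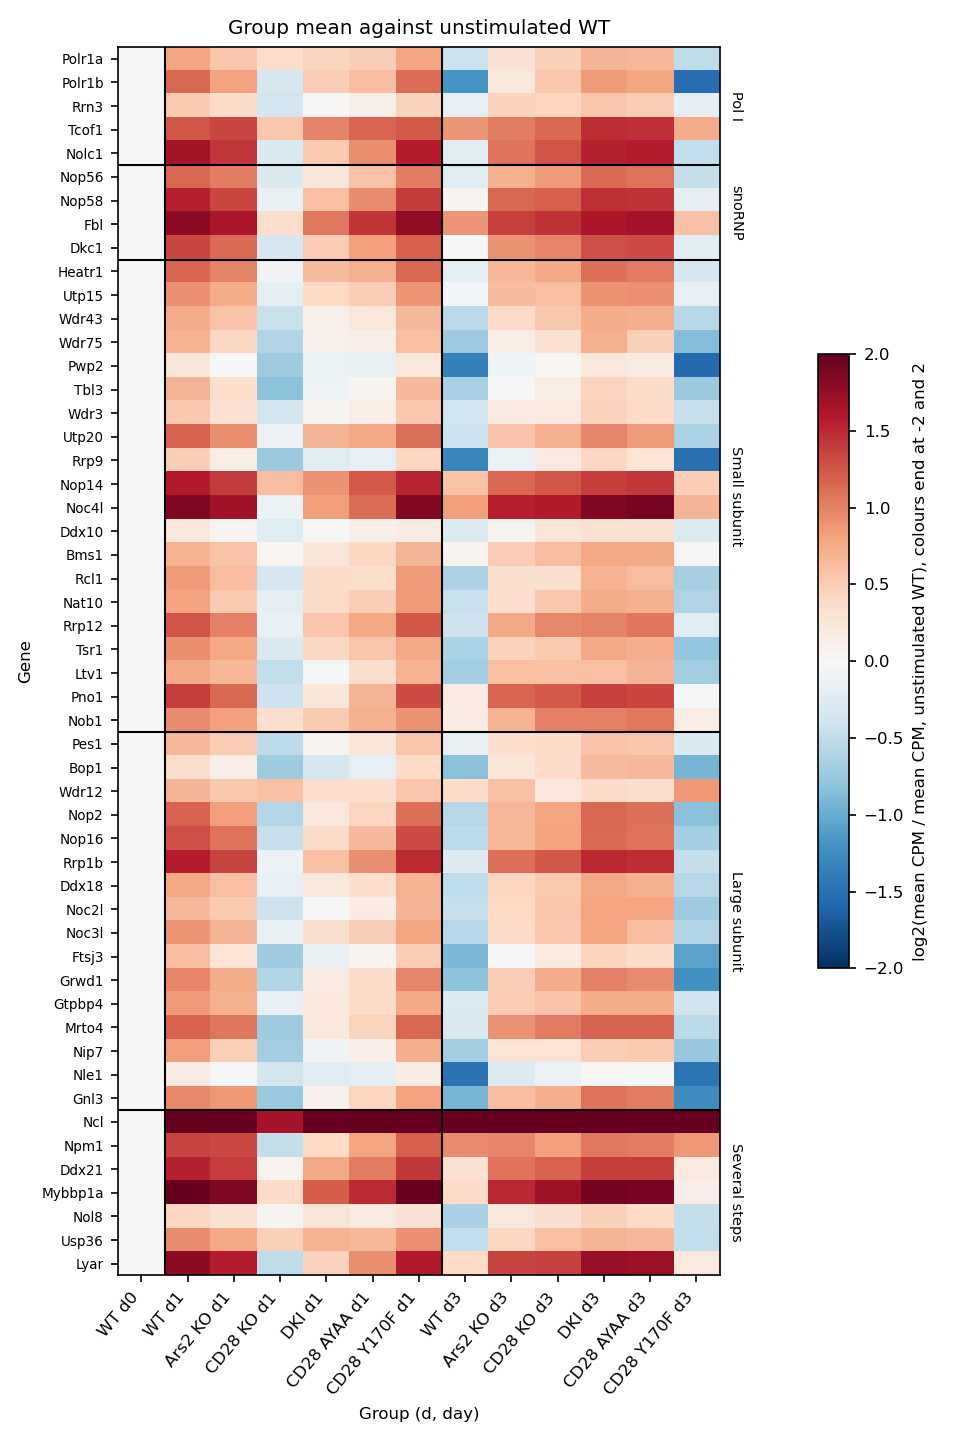
Rows are the 52 genes by step (Pol I, RNA polymerase I; snoRNP, small nucleolar ribonucleoprotein) and columns the 13 groups; colour is log2(group mean CPM divided by the mean CPM of unstimulated WT), red above and blue below it, with colours ending at -2 and 2. WT and CD28 Y170F are red at day 1 and mostly blue or pale at day 3, and DKI and CD28 AYAA deepen between these days. CD28 KO turns from mostly blue or pale at day 1 to mostly red at day 3. Ncl is red in every stimulated group.

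Against WT of the same day, the day 1 deficit was largest in the libraries labelled CD28 KO. There 49 of 52 members were lower and 0 higher, with 24.7% of all genes tested lower, and the median log2 fold change was -1.25 (all genes 0.02). All 20 small subunit genes, all 4 snoRNP genes and all 7 of the remaining nucleolar genes were lower. Nle1, Polr1a and Wdr12 were not called (-0.54, -0.43 and -0.09). Lyar, a nucleolar zinc finger protein of growing cells, was lowest at -2.30 (SE 0.36, adjusted p = 1.4e-05), with 14.3 and 16.6 CPM against 87.3 and 64.6 in WT and 21.4 and 22.5 at day 0. Noc4l followed at -1.99 (17.9 and 19.4 CPM) and Nolc1 at -1.96 (44.0 and 56.6 CPM), both below their resting values. Lyar, Noc4l and Nolc1 did not pass the edgeR test against day 0 (adjusted p = 0.23, 0.69 and 0.47).

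Highly expressed members showed the same gap. Ncl was at 521 and 618 CPM in the CD28 KO libraries, a quantity between the resting and the WT day 1 values and overlapping neither (-1.88, SE 0.23, adjusted p = 4.7e-07). Npm1 was at 390 and 501 CPM, below the resting 601 and 636 (-0.47 against day 0, adjusted p = 0.038) and 1.82 below WT day 1 (SE 0.19, adjusted p = 8.8e-08). Fbl was at 57.7 and 68.0 CPM and Nop56 at 132 and 163 CPM. The summed level of the 15 B cell markers was 242 and 175 CPM in these libraries against 69.1 and 29.8 in WT day 1, and its part in the difference was not tested.

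DKI showed a smaller deficit at day 1. Of 52 members 35 were lower and 0 higher, with 15.8% of all genes tested lower and a median of -0.67. Lyar (-1.33), Nolc1 (-1.15) and Pno1, an assembly factor of the small subunit's late precursor (-1.14), were lowest, and Nol8 (-0.18), Ddx10 (-0.21) and Tcof1 (-0.25) nearest to WT. Nolc1 was at 89.8, 91.1 and 84.5 CPM in DKI, Ncl at 982, 964 and 987 and Npm1 at 826, 811 and 815. For these genes all DKI libraries lay below both WT and above both CD28 KO libraries. The count against WT rested on WT library 1: against WT number 4 alone, which has the depth of the DKI libraries, 0 members were called and the median was -0.47, and against WT number 1 alone 34 were lower. Without DKI number 1 it was 21.

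Set directly against the libraries labelled CD28 KO at day 1, DKI had 10 members higher and 0 lower, with 6.3% of all genes tested higher and a median of 0.61. Noc4l differed by 0.96 (SE 0.25, adjusted p = 0.017) and Npm1 by 0.88 (SE 0.18, adjusted p = 0.0026). For the other fits named next, the shares of all genes called are not given here. The count ranged from 0 to 3 with any 1 library left out and reached 47 in a fit to these 2 groups alone.

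CD28 AYAA at day 1 had 1 of 52 members called lower than WT and 0 higher (2.0% of all genes tested were lower). That gene was Nip7, a factor of the large subunit (-0.70, SE 0.19, adjusted p = 0.039). All 52 fold changes were negative, with a median of -0.50 (all genes 0.03), and 34 members had an unadjusted p under 0.05. The share of all genes under that unadjusted p is not given here, and the 52 fold changes share the same libraries. Nolc1 was at 109, 122 and 119 CPM and Ncl at 1150, 1410 and 1390, below the WT libraries in each case and above the DKI libraries. DESeq2 called 11 members here, and leaving out WT number 4 gave 5. Against WT number 4 alone, or without any 1 CD28 AYAA library, the count was 0.

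Ars2 KO and CD28 Y170F showed no member called against WT at day 1. For Ars2 KO edgeR called 0 of 52, with 0 at an unadjusted p under 0.05, and 0.399% of all genes tested were called in either direction. Its median was -0.20, with 51 of 52 fold changes negative. The libraries overlapped those of WT for all members but Ddx10, Nle1, Nob1, Pwp2 and Usp36. The share of all genes tested without such overlap is not given here. Ncl was at 1370, 1740 and 2250 CPM and Nolc1 at 124, 164 and 203. For CD28 Y170F it was likewise 0, with 0 at an unadjusted p under 0.05, against 0.0547% of all genes, and a median of -0.08. There Ncl was at 1760, 1870 and 2160 CPM and Nolc1 at 173, 176 and 202, inside the WT range. The 2 CD28 tail mutants were also set against each other: CD28 AYAA had 2 members lower than CD28 Y170F (Noc4l, -0.73, and Nip7, -0.59) and 0 higher, with 2.18% of all genes tested lower and a median of -0.40. These libraries were taken as pairs by replicate number from their correlations, which the labels do not state. With the number as a block in a fit to the 2 groups 49 were lower. The same fit without the block gave 48, and the count was 0 with any 1 library left out of the full fit. The shares of all genes called in these fits are not given here.

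**Figure D3:**
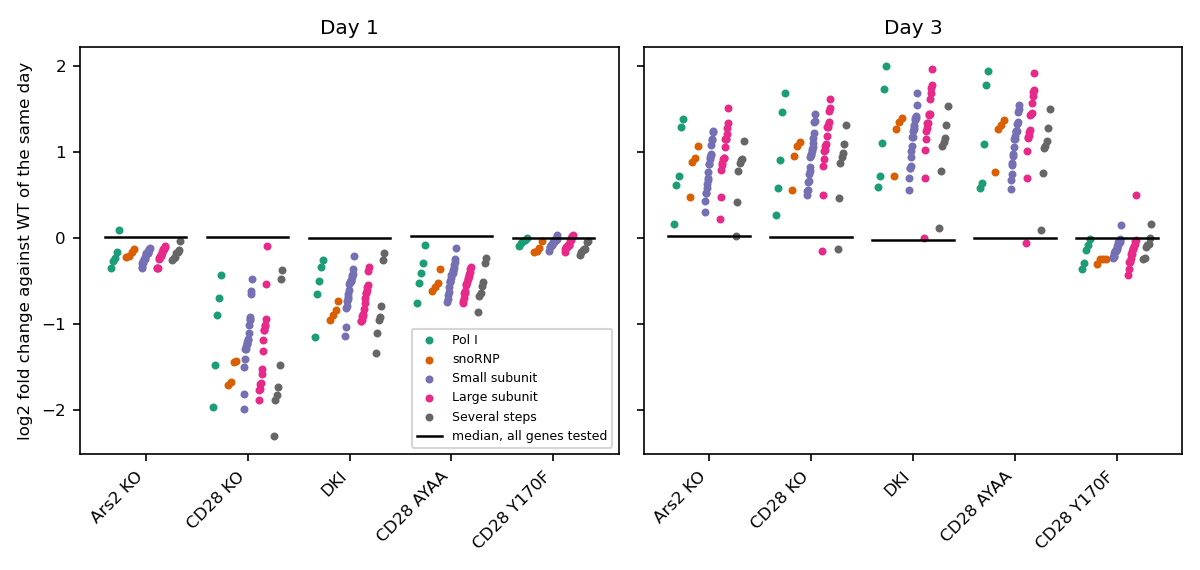
Each point is 1 of the 52 genes, placed by its log2 fold change against WT of the same day (left, day 1; right, day 3), coloured by step and grouped by genotype; the black line is the median of all genes tested. At day 1 the genes lie lowest in CD28 KO (median -1.25), and at day 3 most lie above the line in Ars2 KO, CD28 KO, DKI and CD28 AYAA (medians 0.91 to 1.27) and near it in CD28 Y170F (-0.14).

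At day 3 the order of the genotypes turned. Against WT of that day 50 of 52 members were higher in DKI (10.3% of all genes tested), 50 in CD28 AYAA (10.4%), 45 in CD28 KO (8.57%) and 42 in Ars2 KO (6.6%), with 0 lower in any of the 4. Their medians were 1.27, 1.22, 1.01 and 0.91, and those of all genes lay between -0.02 and 0.03. These comparisons share the 2 WT libraries, which differed from each other: the median of the members against day 0 was -0.12 in WT number 1 and -0.67 in number 4. Against number 1 alone, DKI had 35 members higher, CD28 AYAA 28, CD28 KO 14 and Ars2 KO 3, with medians of 1.00, 0.94, 0.73 and 0.64. Ars2 KO had 19 without its number 2 and 0 in a fit to the 2 groups alone. CD28 Y170F had 0 members called at day 3, with 1 at an unadjusted p under 0.05 and 0.0273% of all genes called, and a median of -0.14.

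Polr1b and Gnl3 had the 2 largest log2 fold changes against WT at day 3 in each of DKI, CD28 AYAA, CD28 KO and Ars2 KO. Polr1b was at 102, 86.6 and 89.6 CPM in DKI and 82.0, 96.2 and 86.8 in CD28 AYAA, against 28.4 and 16.8 in WT (2.01, SE 0.35, adjusted p = 0.0002, and 1.94, SE 0.35, adjusted p = 0.00032). Gnl3 was at 119, 109 and 120 CPM in DKI, 101, 123 and 111 in CD28 AYAA and 91.3 and 89.7 in CD28 KO, against 37.6 and 20.6 in WT. Each of these libraries was higher than any WT library of day 3, and Gnl3 in WT had been at 121 and 92.0 at day 1.

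Nolc1 was at 189, 175 and 174 CPM in DKI, 166, 203 and 183 in CD28 AYAA, 148 and 148 in CD28 KO and 130, 176 and 88.0 in Ars2 KO, against 66.4 and 40 in WT. In CD28 Y170F it was at 74.7, 32.2 and 24.4 CPM, on both sides of the WT values. Ars2 KO was uneven: the members' median against day 0 was 0.05 in number 3, against 0.53 and 0.90 in numbers 1 and 2. CD28 Y170F was uneven too, with medians of -0.90 and -0.70 in numbers 3 and 2 and 0.0 in number 1, and without number 1 it had 9 members lower than WT and 1 higher.

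Npm1, Tcof1, Fbl and Ncl differed less from WT at day 3 than the median member. Npm1 was at 1360 and 1020 CPM in WT, 1320, 1230 and 1330 in DKI, 1130 and 1050 in CD28 KO and 1350, 1060 and 967 in CD28 Y170F, and it passed the test against WT in no genotype at day 3. Tcof1 was higher in DKI and CD28 AYAA (0.59, adjusted p = 0.0084, and 0.58, adjusted p = 0.011) and not called in CD28 KO or Ars2 KO. Fbl (0.73 and 0.77) and Ncl (0.78 and 0.76) were likewise higher in these 2 groups and not called in the others.

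Wdr12, the third protein of the complex with Pes1 and Bop1, differed in pattern from both at day 3. Pes1 was at 66.6 and 46.8 CPM in WT and 67.3, 47.3 and 40 in CD28 Y170F, against 83.1 to 101 in CD28 AYAA, and Bop1 at 43.8 and 23.2 and 46.7, 24.9 and 22.0 against 84.7 to 103. Wdr12 was at 66.5 and 83.4 CPM in WT, 73.2, 128 and 116 in CD28 Y170F and 70.4, 74.2 and 70.9 in CD28 AYAA. The CD28 Y170F and Ars2 KO libraries with the lowest members thus had the highest Wdr12 of their groups, 128, 116 and 107 CPM. It was the 1 member lower in CD28 AYAA than in CD28 Y170F at day 3 (-0.55, SE 0.15, adjusted p = 0.0051), a call lost in a fit to these 2 groups alone. Wdr12 lies 0.62 Mb and Nop58 1.0 Mb from Cd28 on chromosome 1. Its exons overlap those of Carf on the opposite strand. The library kit marks strand; the strand setting of the counting is not given in the sources used here. Overlaps with a gene on the opposite strand occur for 21 of the 52 members.

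**Figure D4:**
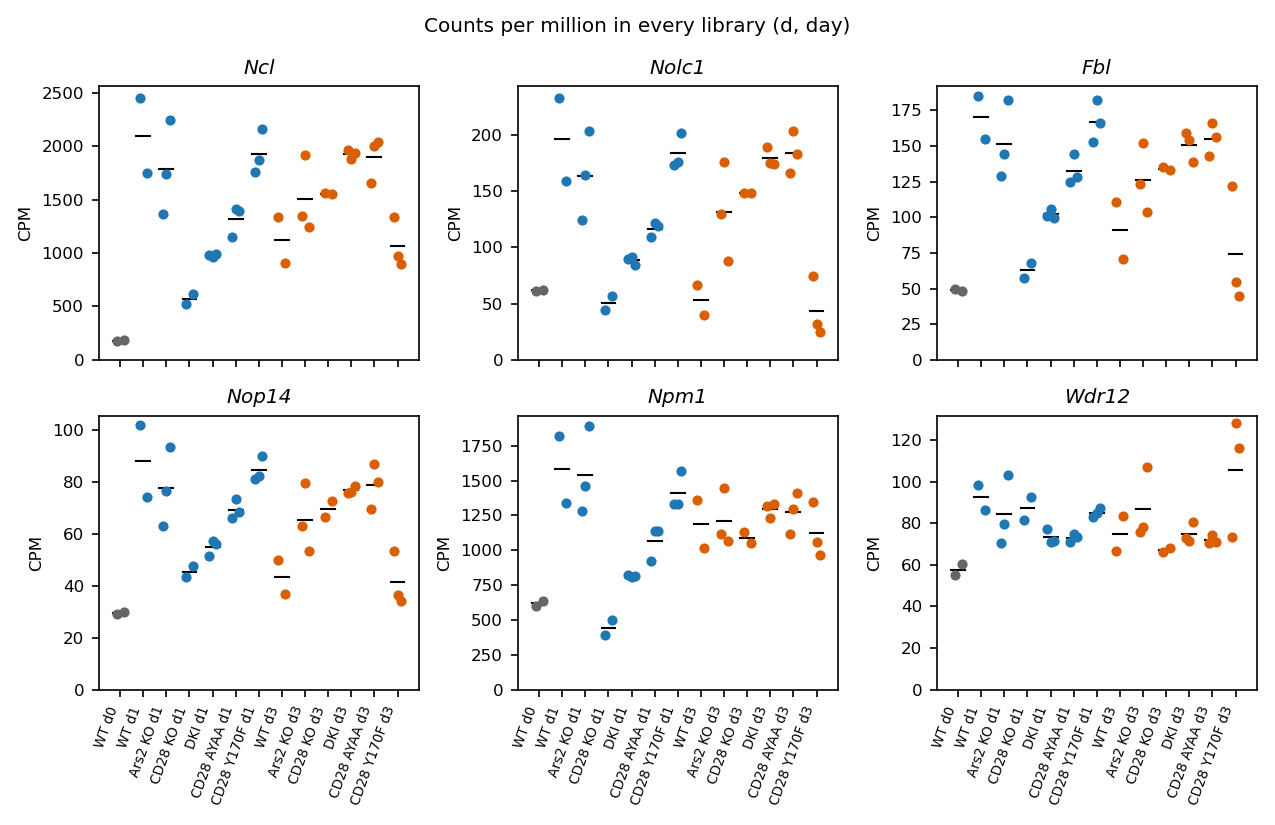
CPM of 6 genes in every library, with points as libraries, bars as group means and axes from 0; grey is day 0, blue day 1 and orange day 3. Nolc1 in WT and CD28 Y170F falls from 159 to 233 CPM at day 1 to 24.4 to 74.7 at day 3, Npm1 stays at 967 CPM or more at day 3, and Wdr12 is highest in CD28 Y170F numbers 2 and 3 at day 3.

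CD28 AYAA and CD28 Y170F differed widely by day 3. Of 52 members 50 were higher in CD28 AYAA and 1 lower, against 17.6% and 19.2% of all genes tested, with a median of 1.32 (all genes -0.04). Polr1b (2.30, SE 0.30, adjusted p = 3.4e-06) and Gnl3 (2.28, SE 0.26, adjusted p = 7.1e-07) differed most, and Npm1 (0.18) was not called. No library of CD28 Y170F reached any of CD28 AYAA for Polr1b (32.5, 12.5 and 8.60 CPM) or Gnl3 (35.0, 22.1 and 11.8 CPM).

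Markers of other cells moved with these day 3 differences. The summed level of 6 NK cell markers was 60.5 to 128 CPM in WT and CD28 Y170F, 143 to 316 in Ars2 KO and 266 to 431 in CD28 KO, DKI and CD28 AYAA. Eomes, which activated CD8 T cells also express, made up most of it, at group means of 79.6 to 94.9 CPM in WT and CD28 Y170F and 205 to 359 in the other groups. Ncr1, the defining marker, was at most 1.29 CPM in any day 3 group mean. Of 17 myeloid markers, summed to 47.9 to 156 CPM in WT and CD28 Y170F and 92.2 to 345 elsewhere, Ccr2 gave the most, and Lyz2 was at 4.57 CPM or less. Mean Cd4 was 118 CPM in WT and 138 in CD28 Y170F, against 123 in Ars2 KO and 44.1 to 70.6 in CD28 KO, DKI and CD28 AYAA, and mean Cd8a was 439 and 530 against 396 and 536 to 655. The part of a changed balance of CD4 and CD8 cells in the members' values was not tested.

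Within each genotype, the members took different courses from day 1 to day 3. They fell in CD28 Y170F as in WT, with 50 of 52 lower and 0 higher (19.2% of all genes tested lower, median -1.40). They rose in the libraries labelled CD28 KO, with 47 higher (25.0%, median 0.91), and in DKI, with 39 higher (23.7%, median 0.56). In CD28 AYAA 15 were higher (21.7%, median 0.34). In Ars2 KO 1 member was lower (10.3%, median -0.24). That gene was Usp36, a nucleolar deubiquitinase (-0.35, SE 0.09, adjusted p = 0.0065). The Ars2 KO libraries were likewise taken as pairs by replicate number, and with the number as a block 0 were called there, as in the same fit without it. The full fit gave 2 without Ars2 KO number 1 of day 1 and 6 without number 2 of day 3. In CD28 AYAA 3, 6 and 5 were called without its day 1 numbers 1, 2 and 3, and 2 and 4 without its day 3 numbers 2 and 3.

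The change in each genotype's difference from WT between the days was tested directly. It was higher at day 3 than at day 1 for 51 of 52 members in CD28 KO (20.5% of all genes tested were higher), 51 in DKI (17.7%), 51 in CD28 AYAA (12.3%) and 28 in Ars2 KO (1.91%), with 0 lower. Wdr12 was the member not called in the first 3 groups. Nolc1 (3.43, SE 0.48, adjusted p = 1e-05) and Gnl3 (3.32, SE 0.44, adjusted p = 5.7e-06) shifted most in CD28 KO. In CD28 Y170F 0 members were called, with 2 at an unadjusted p under 0.05, and 0.0% of all genes. All 5 tests share the 4 WT libraries, and the Ars2 KO count fell to 2 without WT number 4 of day 3, to 4 without WT number 1 of day 1, and to 0 in a fit to these 4 groups alone. It was 7 and 11 without Ars2 KO numbers 1 and 2 of day 1, and 12, 7 and 47 without numbers 1, 2 and 3 of day 3.

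Ribosome biogenesis genes outside the set, pooled over the steps, moved in the same directions with smaller medians. Of 113 further genes of the same steps, 75 were higher and 3 lower in WT at day 1 than at day 0 (median 0.58), and 4 were higher and 77 lower at day 3 than at day 1 (median -0.71). By step, the 12 further polymerase I genes moved least in WT at day 1. Of these 5 were higher and 1 lower, with a median of 0.12, against 1.15 for the 5 polymerase I members. In the libraries labelled CD28 KO 96 were lower and 2 higher than WT at day 1 (median -0.81). The lower genes included all 12 snoRNP genes and 7 of the 12 polymerase I genes, and the 2 higher were both polymerase I genes. Gar1 of box H/ACA particles and Naf1, which loads them, rose most in WT (2.74, SE 0.37, adjusted p = 9.4e-07, and 2.34, SE 0.27, adjusted p = 9.6e-08) and were the lowest in CD28 KO (-1.84 and -2.0). Taf1c, of the selectivity factor of RNA polymerase I, went the other way, lower by day 1 in WT (-0.96, SE 0.12, adjusted p = 3.3e-07) and 0.45 higher in CD28 KO than in WT. At day 3, 82 were higher than WT in CD28 AYAA, 79 in DKI, 61 in CD28 KO, 52 in Ars2 KO and 0 in CD28 Y170F, and 3, 3, 4, 0 and 0 lower.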

How the data were processed

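Expected counts per gene were deposited by the authors as 1 table of 48526 genes and 34 libraries (0 columns unused). The tools listed, per the submitters' processing notes, are STAR, RSEM, FastQC, limma and bcl2fastq 2.20, with GRCm38 (mm10) as the build. Annotation and strand setting are not given in the sources used here. RNA was depleted of ribosomal RNA and made into dUTP strand-marked libraries, per the labels' protocols. Total RNA with ribosomal depletion keeps intronic and unfinished transcripts, which gene counts do not separate from mature mRNA.

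Counts were rounded, and identifiers matched to GENCODE M21 (48144 genes, 99.2%). All 34 libraries were fitted together with a mean per group in edgeR 4.0.16 (R 4.3.3; filterByExpr, 18292 genes; TMM scaling; quasi-likelihood F test; biological coefficient of variation 0.16). Genes were called at an edgeR p, adjusted by Benjamini and Hochberg over all genes tested, under 0.05. CPM use TMM-scaled library sizes. SE is of the log2 fold change. The model was tested on simulated data.

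The members, the 113 other genes and the marker lists were chosen with earlier results of these data known. Values in every library are given for the 2 members of each step with the highest level per length and the 2 with the largest change in WT at day 1, and for members at either end of a comparison; Rrn3, Pes1, Bop1 and Wdr12 in full were added after their values were seen. Alternatives were DESeq2 1.42.0, limma-voom (limma 3.58.1), RLE scaling, no filter, protein-coding genes alone, only the groups compared, a replicate block and each library left out.

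Deviations from group means correlated within every replicate number between CD28 AYAA and CD28 Y170F at day 1 (0.28, 0.33 and 0.39) and between the days in Ars2 KO (0.24, 0.23 and 0.10, the last 0.101 unrounded), so these numbers were taken as pairs. The labels do not state such pairs. CD28 AYAA between the days, not taken as paired, had 0.185, 0.035 and 0.307. The columns of CD28 KO at day 3 are numbered otherwise than the sample titles and were assigned to the group alone.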

Additional observations from a re-analysis of the deposited data

Results flagged for a closer look

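The difference of a genotype from WT changed between day 1 and day 3, by a direct test of that change over all genes in edgeR, for 28 of 52 members in Ars2 KO and for 51 of 52 members in each of CD28 AYAA (51), DKI (51) and CD28 KO (51), each time toward a higher value at day 3. These 4 tests share the same 4 WT libraries. Of all genes tested, 1.91% were called higher in Ars2 KO, 12.3% in CD28 AYAA, 17.7% in DKI and 20.5% in CD28 KO. The Ars2 KO count was lost in a fit to only the groups compared. It also fell without WT number 1 of day 1 or WT number 4 of day 3, as given above. For single members the change reached 3.43 on the log2 scale (SE 0.48) for Nolc1 in CD28 KO, to 2.89 (SE 0.44) for Nolc1 in DKI, 2.53 (SE 0.44) for Nolc1 in CD28 AYAA and 1.73 (SE 0.46) for Polr1b in Ars2 KO. No group had enough libraries to look for a single one far from the rest.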

How the results depend on the processing

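Of the counts of called members under other settings 198 stayed within 1.5 times the main count, 25 moved further and 1 changed its balance; with a library left out the numbers were 148, 49 and 4. CD28 KO at day 1 against day 0 gave 32 calls in a fit to only the groups compared and 13, with the balance turned (7 higher, 6 lower), on protein-coding genes alone. The fit to only the groups compared also gave 40 for DKI (5 of them lower) and 43 for CD28 AYAA (3 lower) at day 1 against day 0, 13 for CD28 Y170F at day 3 against day 0, 0 for Ars2 KO against WT at day 3 and for its change between days, 0 for Ars2 KO day 3 against day 1, 46 for CD28 AYAA day 3 against day 1, 13 for CD28 AYAA against WT at day 1, 48 for CD28 AYAA against CD28 Y170F at day 1 and 47 for DKI against CD28 KO at day 1. CD28 AYAA against WT at day 1 gave 11 with DESeq2, 21 with no filter and 4 on protein-coding genes; Ars2 KO day 3 against day 1 gave 2 on protein-coding genes. CD28 AYAA day 3 against day 1 gave 35 with no filter. CD28 AYAA against CD28 Y170F at day 1 gave 5 with DESeq2 and 19 with no filter. DKI against CD28 KO at day 1 gave 25 with DESeq2, 6 with limma-voom and 28 with no filter. The shares of all genes called are not given here for these settings or for the blocked fits below. The cause of these shifts was not tested.

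With the replicate number as a block, in a fit to the 2 groups, counts were 49 for CD28 AYAA against CD28 Y170F at day 1, 48 for CD28 AYAA day 3 against day 1, 43 for DKI against CD28 KO at day 1 and 0 for Ars2 KO day 3 against day 1; 4 other blocked counts were within 1.5 times the main one. Not taken as pairs were CD28 AYAA (0.185, 0.035 and 0.307), CD28 Y170F (0.096, 0.094 and 0.244) and DKI (0.019, 0.031 and 0.007) between days, and CD28 AYAA and CD28 Y170F at day 3 (0.0, 0.065 and 0.158). In each, at least 1 correlation was below the lowest of the pairs taken, 0.101. That bound comes from the pairs taken, so it gives no independent reason for the choice. WT (0.292 for both numbers) and DKI with CD28 KO (0.002 and -0.025) had only 2 pairs.

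With 1 library left out, counts against day 0 ranged from 11 to 28 for WT day 3 (11, as 6 higher and 5 lower, without number 4), 27 to 42 for Ars2 KO day 1, 4 to 6 for CD28 KO day 1 (5 without its number 1, and 4 and 6 without day 0 numbers 1 and 2, each with more higher than lower), 7 to 12 for DKI day 1, 12 to 24 for CD28 AYAA day 1, 18 to 41 for Ars2 KO day 3 and 20 to 24 for CD28 KO day 3. Against WT they ranged from 0 to 34 for DKI and 0 to 5 for CD28 AYAA at day 1, and from 3 to 47 for Ars2 KO, 14 to 47 for CD28 KO, 28 to 50 for CD28 AYAA and 0 to 10 for CD28 Y170F at day 3. Day 3 against day 1 gave 1 to 6 for Ars2 KO and 2 to 12 for CD28 AYAA. CD28 AYAA against CD28 Y170F at day 1 gave 0 to 0, DKI against CD28 KO 0 to 3 and the Ars2 KO change between days 2 to 47. A group left with 1 library is assumed to vary like the others. With a library left out, the median of the members changed sign in CD28 Y170F against WT at day 1 and day 3 and in the change of that difference between days.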
